A study of Mus musculus with 20 samples.

Results

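Intestinal IgA plasma cells collected at ZT12 were compared with the same cells collected at ZT0, across all genes. Zeitgeber time (ZT) is given in hours after the lights went on, so that under a 12-hour light and 12-hour dark cycle ZT0 is dawn and ZT12 is dusk, when mice begin to feed. The comparison used 10 of the 20 libraries of the series, chosen by their labelled time: 5 from ZT0 and 5 from ZT12. The other 10 libraries, from ZT6 and ZT18, entered the fit as groups of their own and are given only to place a level between dawn and dusk. All animals were wild-type C57BL/6 mice fed ad libitum. Small intestines were digested with collagenase D and DNase I, cells positive for CD138 and IgA were sorted, and bulk libraries were made from poly-T selected RNA. There was 1 animal for each library, so every time point is a separate group of animals and not the same mice followed over a day.

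IgA plasma cells of the gut lamina propria are terminally differentiated B cells that devote most of their messenger RNA and much of their endoplasmic reticulum to a single product, the antibody that is carried across the epithelium into the lumen. Most cells also run a molecular clock, in which BMAL1 and CLOCK activate the Period, Cryptochrome and Rev-erb genes through E-box elements, and the products of these genes repress BMAL1 and CLOCK or the gene that encodes BMAL1, Arntl. Besides the clock, cells in a living animal follow signals with a daily course of their own, among them glucocorticoids, body temperature and feeding, which reach transcription through the glucocorticoid receptor, heat shock factors, the amino acid response factor ATF4, mTOR and the sterol-sensing factor SREBP2.

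Library totals were 40.1 to 51.0 M counts at ZT0 and 35.6 to 68.0 M at ZT12 (M, mega). Genes of the immunoglobulin loci took 52.6% to 58.9% of the counts at ZT0 and 56.7% to 62.3% at ZT12. Levels are given as counts per M counts (CPM) after scaling by the trimmed mean of M values (TMM), whose factors were 0.973 to 1.17 at ZT0 and 0.862 to 1.02 at ZT12. The defining plasma cell markers were present in all 10 libraries, among them Xbp1, the secretory transcription factor, at 1894 to 2116 CPM at ZT0 and 1897 to 2126 CPM at ZT12. The summed level of 14 enterocyte markers was 42.8 to 50.4 CPM at ZT0 and 55.5 to 88.9 CPM at ZT12, with no overlap. Most of it was Epcam (40.3 to 48.7 and 48.2 to 55.5 CPM). The keratin genes Krt8 (0.0769 to 1.63 and 1.34 to 13.7 CPM) and Krt19 (0.0256 to 0.388 and 0.309 to 8.03 CPM) and Vil1, which encodes villin (0.103 to 0.356 and 0.722 to 2.41 CPM), reached higher levels at ZT12, and Alpi, an enzyme of the absorptive brush border, stayed at or below 0.352 CPM. All 11 tested members had a positive change, 8 of them at an unadjusted p under 0.05, and none was called. The sums of T cell and ILC markers (29.6 to 34.2 against 24.9 to 28.3 CPM) and of stromal and endothelial markers (29.5 to 38.2 against 26.7 to 28.6 CPM) were lower at ZT12 without overlap. Most of the T cell and ILC sum was Cd4 (26.0 to 30.8 and 22.4 to 24.6 CPM). Of 7 tested T cell and ILC markers 3 had a positive change, and none was called. The marker sums of B cells, macrophages, granulocytes, Paneth and goblet cells and erythroid cells overlapped, and S100a9, Elane, Mcpt2 and Cpa3 were at 0. In bulk RNA, fewer cells of a type and less RNA per cell cannot be told apart.

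**Figure D1:**
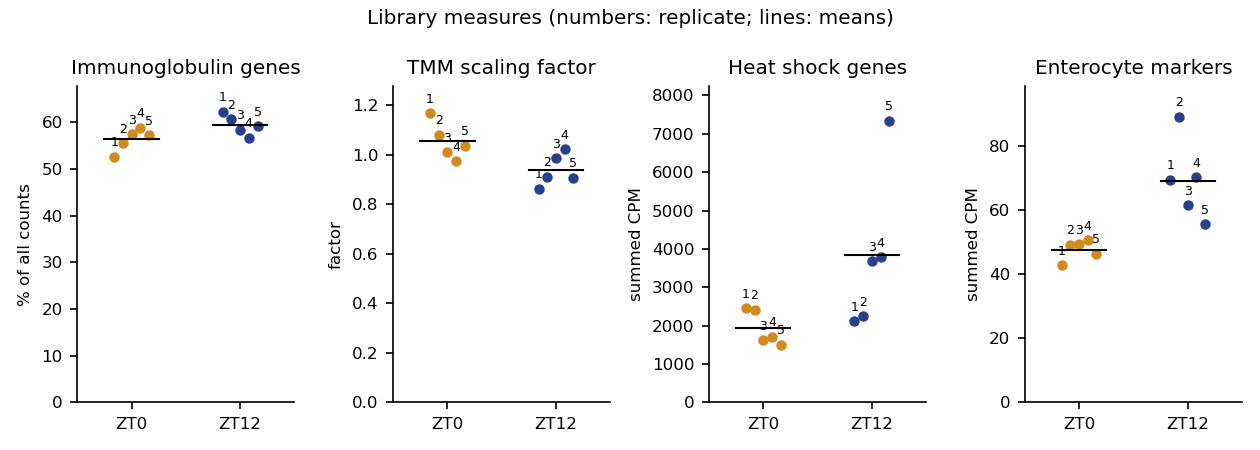
Measures of the 10 libraries, plotted by time: the share of counts in immunoglobulin genes (%), the TMM scaling factor, and the summed levels (CPM) of heat shock genes and of enterocyte markers. Each point is 1 library and each line a mean of 5; the enterocyte marker sums do not overlap (highest at ZT0 50.4, lowest at ZT12 55.5 CPM), and ZT12 replicate 5 has the highest heat shock sum, 7344 CPM.

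Which genes differed between dusk and dawn was asked with edgeR's quasi-likelihood test. After a filter on low counts, 13967 of 47069 genes were tested, and 539 of them, 3.86%, passed an adjusted p (Benjamini-Hochberg) of 0.01 and are referred to as called. Of these, 274 (1.96% of the genes tested) were higher at ZT12 and 265 (1.90%) were lower. These shares are the background for the lists below. Most changes were small, with a median of 1.25-fold among the genes that rose and 1.33-fold among those that fell. Of the called genes, 28 changed by 2-fold or more, and 7 of these averaged 5 CPM or more. Protein-coding genes made up 501 of the 539. A further 26 were processed pseudogenes that rose, 11 of them named for ribosomal protein genes, against 1 that fell. The 5 ZT12 libraries did not overlap the 5 ZT0 libraries in 1010 genes, 7.23% of those tested. The balance of rising and falling genes depended on the scaling. With library totals in place of TMM the median change of all tested genes moved from -0.00 to -0.17 on the log2 scale, and 38 genes were called higher and 921 lower. All changes below are relative to the bulk of genes, as TMM sets it.

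**Figure D2:**
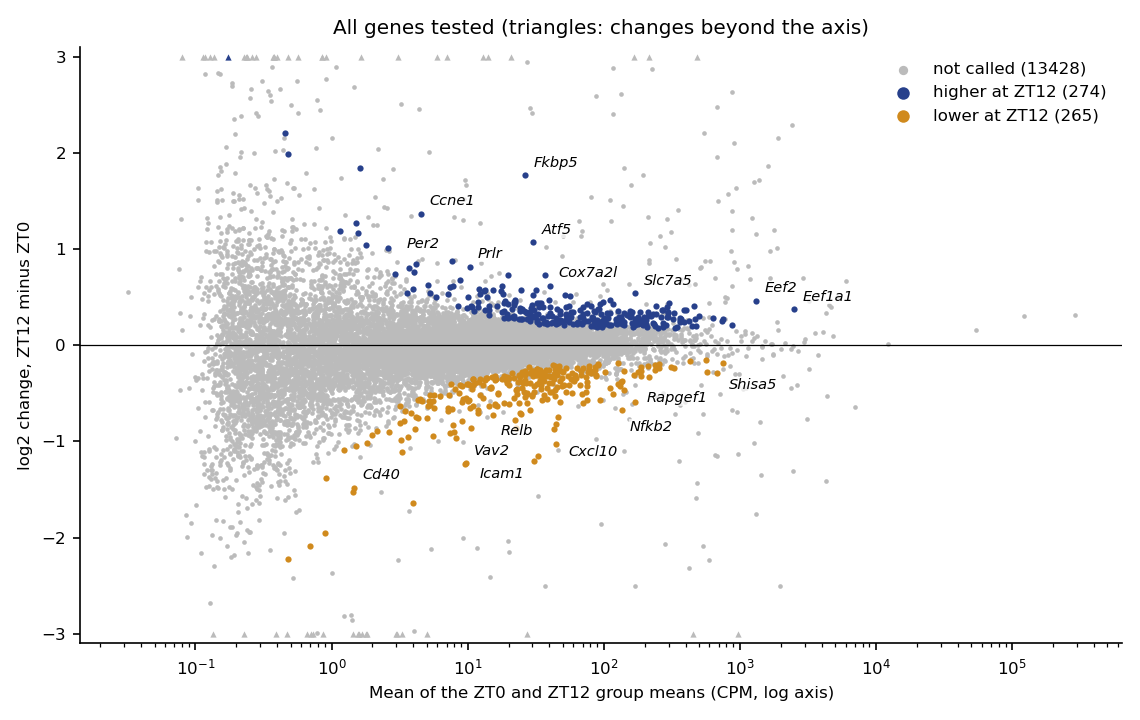
Change of every tested gene between ZT12 and ZT0 (log2, vertical axis) against its mean level (CPM, log axis). Blue points are the 274 genes called higher at ZT12, ochre points the 265 called lower and grey points the others, with triangles for changes beyond the axis; Fkbp5, with a change of 1.77, stands farthest above 0 among called genes of at least 5 CPM.

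The other 2 times were set beside dawn and dusk. The ZT6 mean lay nearer to ZT12 than to ZT0 for 173 of the 274 genes that rose (63.1%) and for 197 of the 265 that fell (74.3%). Over all tested genes with a higher or a lower mean at ZT12 these shares were 53.0% and 54.8%. The ZT18 mean lay nearer to ZT12 for 56 genes that rose (20.4%) and 107 that fell (40.4%), where all tested genes gave 46.2% and 48.5%. The ZT0 and ZT12 values chose these genes, so these shares are a description.

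Of 19 core clock genes, 16 were tested, 4 rose at ZT12 and 1 fell, against 1.96% and 1.90% of all tested genes. The median change was 0.20 (log2). Nr1d1, which encodes the repressor Rev-erb alpha, was at 0.994, 2.23, 1.98, 1.74 and 1.73 CPM in the ZT0 libraries and at 2.67, 3.52, 4.01, 4.10 and 3.22 CPM in the ZT12 libraries. All dusk values lay above all dawn values, and the change was 1.02 ± 0.19 (log2 ± SE, edgeR adjusted p = 0.000346). Per2, of the negative limb of the clock, was at 5.88, 5.90, 4.72, 5.90 and 4.74 CPM at ZT0 and at 8.25, 10.2, 10.2, 10.9 and 10.2 CPM at ZT12, a rise of 0.88 ± 0.14 (adjusted p = 3.82e-05). Tef, a PAR bZIP output factor that binds D-boxes, had the smallest p of the list, with 14.3, 12.5, 16.01, 15.3 and 15.8 CPM against 24.4, 26.0, 23.8, 23.3 and 25.5 CPM (0.73 ± 0.08, adjusted p = 4e-08). In both genes the dusk libraries were again all above the dawn libraries. Nr1d2, which encodes Rev-erb beta, rose from 33.6 ± 4.35 to 46.3 ± 3.29 CPM (SD, n = 5) and had its highest mean at ZT6, 58.9 ± 5.40 CPM. Arntl was at 7.97, 9.08, 7.98, 10.6 and 8.33 CPM at dawn and 4.60, 6.24, 4.22, 4.92 and 7.45 CPM at dusk, a change of -0.68 ± 0.13 (adjusted p = 0.000427). The dusk values were spread out, but none reached the lowest dawn value.

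The other 11 tested clock genes were not called. Bhlhe40, a repressor of E-box genes (-0.42 ± 0.11, adjusted p = 0.011), and Rora, an activator of Arntl (0.55 ± 0.15, adjusted p = 0.016), came closest, and in both the groups did not overlap. Per1, which glucocorticoids and cyclic AMP also induce, was at 197 ± 14.8 CPM at ZT0, 196 ± 15.98 CPM at ZT12 and 131 ± 10.2 CPM at ZT18 (SD, n = 5). Dbp, like Tef a D-box factor, was at 4.20 and 5.40 CPM (adjusted p = 0.14). With library totals Nr1d2 was not called (adjusted p = 0.013), and it lost its call in 10 of 22 alternatives. Nr1d1, Per2 and Nr1d2 lost their calls without the 3 dusk libraries highest in heat shock genes, where 1 clock gene rose. Nr1d1, Nr1d2 and Arntl lost theirs without the 3 highest in enterocyte markers, where 3 clock genes rose and none fell. Both fits kept 2 dusk libraries.

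Promoters were read from RefSeq in build GRCm38.p6, from 250 bases before to 50 bases after each annotated start. The canonical E-box CACGTG, which reads the same on both strands, was found for Tef but not for Nr1d1, Nr1d2 or Arntl, and for 4 of 10 clock genes that were not called, while Per2 was not searched. Of all 27025 genes with a promoter in that table, 8.09% held it. A match marks letters and not a bound site, and a window without one says nothing of elements farther away. The Tef promoter is shown because Tef had the smallest p of the clock genes. These are the 160 bases before the start on chr15:81802513-81802672, + strand, with the E-box, first base at -127, in capitals.
Tef: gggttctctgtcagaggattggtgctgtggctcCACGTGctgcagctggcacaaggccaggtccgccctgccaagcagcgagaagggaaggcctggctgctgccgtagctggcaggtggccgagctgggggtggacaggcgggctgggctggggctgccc

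**Figure D3:**
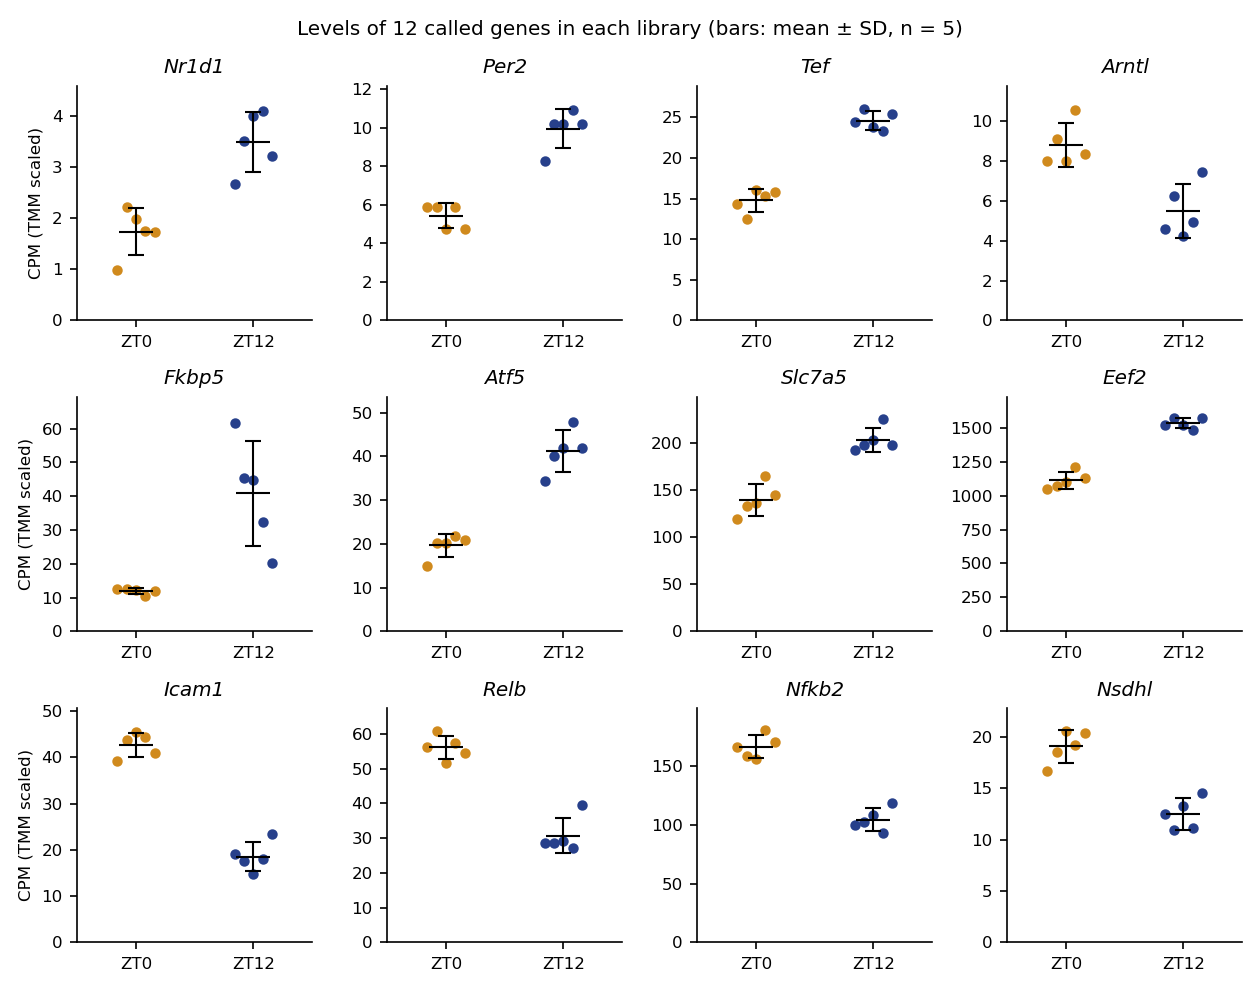
Levels of 12 called genes (CPM, linear axes from 0) in each of the 5 ZT0 and 5 ZT12 libraries. Each point is 1 library and bars give the mean and SD of 5; Fkbp5 is spread from 20.3 to 61.6 CPM at ZT12, where its ZT0 libraries lie between 10.5 and 12.6 CPM.

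Fkbp5 encodes a co-chaperone of the glucocorticoid receptor and is itself a classic target of that receptor. The ZT0 libraries held 12.6, 12.6, 12.2, 10.5 and 11.9 CPM and the ZT12 libraries 61.6, 45.4, 44.9, 32.4 and 20.3 CPM. The lowest dusk library was above every dawn library, although the dusk libraries differed among themselves far more than the dawn libraries, and the change was 1.77 ± 0.20 (log2, adjusted p = 2.43e-05). At ZT6 and ZT18 the means were 14.0 ± 1.38 and 13.3 ± 1.21 CPM, so that dusk alone stood high. Ddit4, an inhibitor of mTOR that glucocorticoids and stress induce, rose from 12.3 ± 0.993 to 18.4 ± 3.68 CPM (adjusted p = 0.00188). Fkbp5 and Ddit4 were the 2 of 16 tested glucocorticoid-induced genes that rose (12.5%), against 1.96% of all tested genes. The median of the list was 0.26. Ddit4 lost its call with library totals (edgeR adjusted p = 0.041). It also lost it without the 3 dusk libraries highest in heat shock genes and without the 3 highest in enterocyte markers. Tsc22d3, which encodes GILZ, was at 373 and 448 CPM (0.26 ± 0.07, adjusted p = 0.015). The metallothionein gene Mt2 fell from 6.35 to 4.16 CPM (-0.62 ± 0.14, adjusted p = 0.00357), with overlapping groups, and its neighbour Mt1 was at 11.1 and 8.31 CPM (adjusted p = 0.011). Mt2 lost its call in 8 of 22 alternatives.

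Heat shock genes, which encode the chaperones that heat shock factor 1 switches on, had a median change of 0.61 (log2), but of 22 tested only Fkbp4 was called (59.3 and 70.1 CPM, 0.24 ± 0.05, adjusted p = 0.00343). Of the list, 19 had an unadjusted p under 0.05. Hspa1a, an inducible HSP70, was at 53.2, 60.9, 8.66, 10.1 and 6.20 CPM at ZT0 and at 19.2, 40.9, 191, 212 and 562 CPM at ZT12. In both groups some libraries were many times higher than others, and ZT12 replicates 1 and 2 lay within the dawn range. The summed level of the list was 1501 to 2452 CPM at dawn and 2123 to 7344 CPM at dusk. Without the 3 dusk libraries highest in these genes (replicates 3, 4 and 5), 172 genes were called higher and 173 lower, and without the 3 highest in enterocyte markers (replicates 1, 2 and 4) 103 and 70, with 2 dusk libraries left in either case. The part of heat shock genes and of enterocyte RNA in the dusk values was not tested. The study's flow cytometry gated these plasma cells among live CD45+ cells without CD3, CD5, NK1.1, B220 or IgD, a gate that leaves out epithelial, stromal and T cells, and whether the sort for RNA used it is not given in the sources used here. Rbm3, an RNA-binding protein induced by mild cold, rose from 76.6 ± 1.93 to 97.3 ± 2.46 CPM (SD, n = 5, adjusted p = 6.72e-06), with 119 ± 3.88 at ZT6 and 59.5 ± 4.37 at ZT18. With library totals Rbm3 was not called (adjusted p = 0.065).

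Many cytosolic ribosomal protein genes rose at dusk. Of 82 tested cytosolic ribosomal protein genes, 50 rose and none fell, against 1.96% and 1.90% of all tested genes. The median change was 0.26 (log2), the range -0.02 to 0.49, and 80 of 82 changes were positive. Rpl4, of the large subunit, was at 368, 385, 399.6, 429 and 405 CPM at ZT0 and at 529, 533, 508, 538 and 526 CPM at ZT12 (0.41 ± 0.04, adjusted p = 7.22e-09). Every dusk library was above every dawn library. Rps4x, of the small subunit, rose from 259 ± 12.2 to 350.3 ± 14.0 CPM (SD, n = 5). Rpsa, Rpl6, Rps3a1, Rpl3 and Rplp0 rose by 0.25 to 0.41. Rps19, of the small subunit, was at 132 and 131 CPM and not called. Counting could divide reads between these genes and their many processed pseudogenes, so that single members are less certain than the list.

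Of the elongation and initiation factors, 12 of 46 (26.1%) were called, all higher, against 1.96% of all tested genes. The list median was 0.12. Eef2, which moves the ribosome along the message, was at 1049, 1068, 1103, 1211 and 1128 CPM at ZT0 and at 1520.1, 1569, 1523, 1483 and 1571 CPM at ZT12 (0.46 ± 0.04, adjusted p = 1.02e-10). The groups were far apart beside their own spread. Eef1a1, which brings aminoacyl-tRNA to the ribosome, rose from 2201 ± 70.6 to 2851 ± 109 CPM (SD, n = 5). Subunits of initiation factor 3 (Eif3f, Eif3h, Eif3e, Eif3k and Eif3c) rose by 0.25 to 0.47. Eef1b2, Eef1g, Eif4b, Pabpc1 and Tpt1 made up the rest.

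Other parts of protein production held fewer calls. Of 44 tested ribosome biogenesis genes 1 rose (2.27%), near the 1.96% of all tested genes, and the list median was 0.01. That gene was Npm1, a nucleolar chaperone (63.6 and 74.2 CPM, edgeR adjusted p = 0.0025). None of 77 mitochondrial ribosomal protein genes was called by edgeR, DESeq2 or limma-voom, with 10 at an unadjusted p under 0.05 and a median of -0.03. Among 23 aminoacyl-tRNA synthetase genes Sars, Mars and Gars rose, by 0.22 to 0.32. Calls on the translation machinery rested on the scaling: with library totals the median of the ribosomal protein list was 0.09, against -0.17 for all genes, and 4 of its members and 3 translation factors were called. With each library left out in turn, 41 to 53 ribosomal protein genes rose. Without the 3 dusk libraries highest in heat shock genes 29 rose, and without the 3 highest in enterocyte markers 25.

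**Figure D4:**
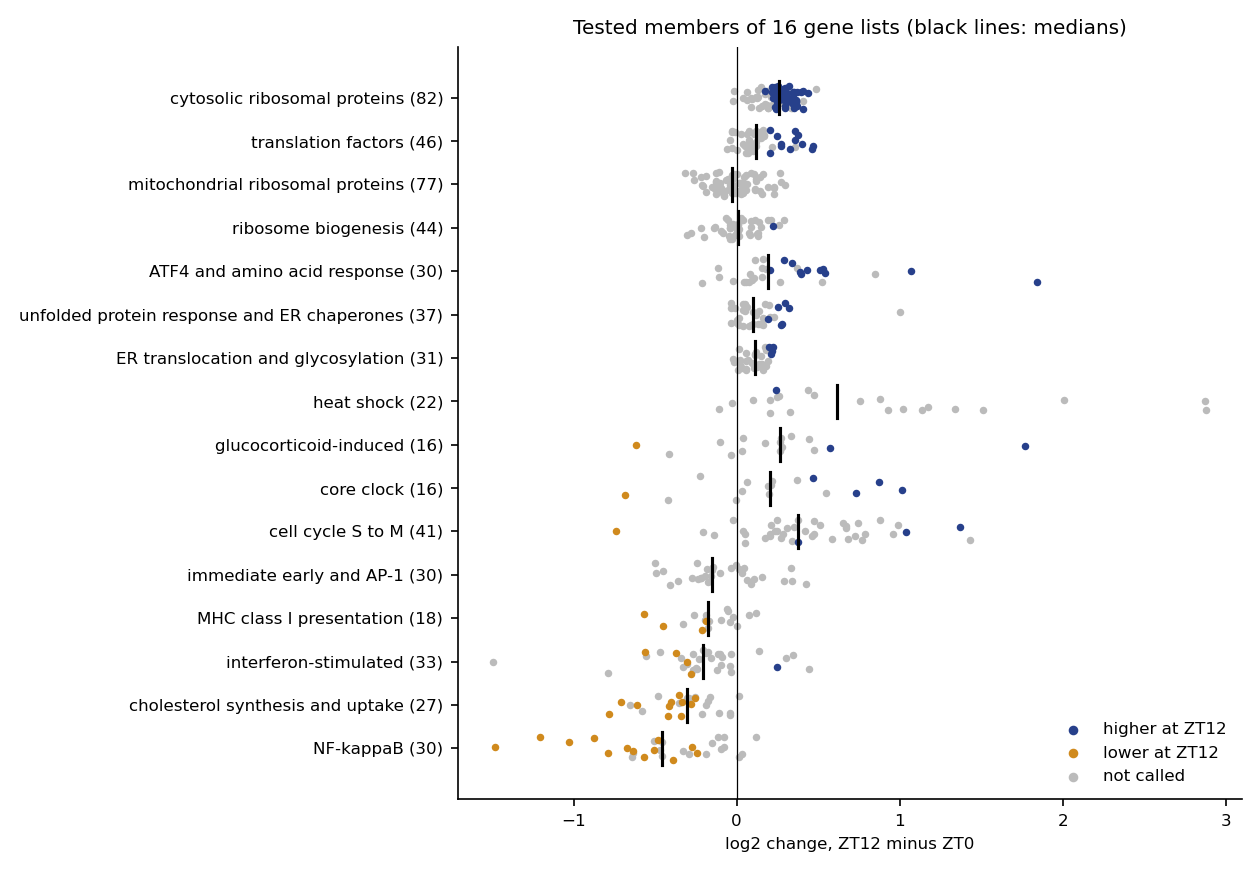
Change between ZT12 and ZT0 (log2) of every tested member of 16 gene lists, with the number tested in brackets. Blue members were called higher, ochre members lower and grey members not called, and black lines are medians; ribosomal proteins lie right of 0 (median 0.26) and mitochondrial ribosomal proteins around it (-0.03), while NF-kappaB genes (-0.46) and cholesterol genes (-0.30) lie left.

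A part of the ATF4 response rose at dusk. ATF4 is the transcription factor that is translated when amino acids run short or the endoplasmic reticulum is stressed, and many of its targets import or make amino acids. Of 30 tested genes 11 rose (36.7%) and none fell, against 1.96% and 1.90% of all tested genes. The median was 0.19 (log2). Atf5, a stress-induced bZIP factor, was at 15.1, 20.3, 20.3, 21.8 and 20.98 CPM at ZT0 and at 34.4, 40.0, 42.0, 48.0 and 41.9 CPM at ZT12 (1.07 ± 0.12, adjusted p = 7.88e-06). The groups did not overlap, and ZT6 was intermediate at 28.4 ± 3.91 CPM. Asns, asparagine synthetase, was at 39.1, 48.1, 44.8, 50.1 and 49.8 CPM against 65.4, 61.6, 66.3, 67.4 and 69.9 CPM (0.51 ± 0.06, adjusted p = 1.47e-07). Slc7a5, the light chain of the amino acid transporter LAT1, was at 119.6, 132, 136, 165 and 144 CPM against 193, 198, 203, 225 and 198 CPM (0.54 ± 0.07, adjusted p = 1.05e-05). In both genes every dusk library was above every dawn library. Slc3a2, which encodes the partner of LAT1, CD98, rose from 415 to 477 CPM (adjusted p = 0.00616) and lost its call in 13 of 22 alternatives. The serine and one-carbon enzymes Phgdh, Psat1, Shmt2 and Mthfd2 rose by 0.29 to 0.53. Trib3, a pseudokinase that feeds back on ATF4, had a low level, 0.712 and 2.54 CPM, and a change of 1.84 ± 0.38 (adjusted p = 0.00205). Sesn2 and Cebpg rose by 0.34 to 0.39. Sesn2 lost its call in 11 of 22 alternatives.

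Atf4 itself (324 and 338 CPM, adjusted p = 0.5), Ddit3, which encodes the stress factor CHOP (28.2 and 29.1 CPM, adjusted p = 0.86), and Ppp1r15a, which restores translation after stress (191 and 188 CPM, adjusted p = 0.88), were not called. With library totals 4 members were called higher, and 5 without the 3 dusk libraries highest in heat shock genes, the same number as without the 3 highest in enterocyte markers. The amino acid response element TGATGNAA (N any base, both strands) lay in the promoter of Asns and of Trib3, 2 of 10 called members with a RefSeq entry, and of 4 of 15 that were not called, against 4.51% of all genes. The Asns promoter is shown because Asns had the smallest p of the list. These are the 60 bases before the start on chr6:7693210-7693269, - strand, with the element, first base at -23, in capitals.
Asns: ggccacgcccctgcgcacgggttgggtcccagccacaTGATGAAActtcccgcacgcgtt

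Some genes of the secretory apparatus rose at dusk, by small amounts. Of 37 tested genes of the unfolded protein response and ER chaperones, 6 rose (16.2%) and none fell, against 1.96% and 1.90% of all tested genes. Of the 37 changes 32 were positive, against 6942 of 13967 over all tested genes, and the median was 0.10. Pdia4, a protein disulfide isomerase, was at 702, 706, 694, 637 and 675 CPM at ZT0 and at 850.1, 831, 805, 846 and 798 CPM at ZT12 (0.27 ± 0.04, adjusted p = 1.71e-05). All dusk libraries were above all dawn libraries. P4hb, another disulfide isomerase, Creld2 and Manf, which ER stress induces, Fkbp11, a prolyl isomerase of secretory cells, and Dnajb9, a cochaperone of BiP, rose by 0.19 to 0.32. Manf lost its call in 16 of 22 alternatives. Hspa5, which encodes BiP, was at 3915 and 4304 CPM (adjusted p = 0.2), Hsp90b1 at 2490.5 and 2472 CPM (adjusted p = 0.92) and Xbp1 at 2029.7 and 1981 CPM (adjusted p = 0.52), none of them called. Of 31 genes for translocation into the ER and glycosylation, Srp9, Rpn2, Ddost and Ssr2 rose (12.9%), by 0.20 to 0.22, and 29 changes were positive. Srp9 and Ssr2 lost their calls in 13 of 22 alternatives, Rpn2 in 8 and Ddost in 4. None of 30 ER to Golgi traffic genes was called by edgeR (12 at an unadjusted p under 0.05, 2 called by DESeq2 and 1 by limma-voom). Of 45 proteasome genes edgeR called none (12 at an unadjusted p under 0.05, 2 called by DESeq2 and 1 by limma-voom). With library totals 0 chaperone genes and 0 translocation genes were called higher. Fits without the 3 dusk libraries highest in heat shock genes gave 3 and 0, and without the 3 highest in enterocyte markers 1 and 0.

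No antibody gene was called by edgeR between dawn and dusk. Igha, the constant region of IgA, was at 209634, 243016, 269556, 312219 and 258705 CPM at dawn and at 358337, 334438, 296427, 273998 and 343338 CPM at dusk. The groups overlapped (0.31 ± 0.09, adjusted p = 0.043). Igkc, the kappa light chain constant region, had a change of 0.31 ± 0.10 (adjusted p = 0.078) and Jchain, the joining chain, of 0.16 ± 0.06 (adjusted p = 0.15). The share of all counts in immunoglobulin genes, which does not count Jchain, was 56.3% ± 2.39 at ZT0 and 59.5% ± 2.12 at ZT12 (SD, n = 5 each). The difference of 3.12 percentage points had p = 0.0714 in an exact two-sided permutation test, whose smallest possible p is 0.00794. Of 263 tested immunoglobulin genes none was called by edgeR, with 49 at an unadjusted p under 0.05, and among the 229 variable segments DESeq2 called 11 and limma-voom 2. In 7 segments all ZT12 libraries were above all ZT0 libraries, and in 4 all were below. Over all tested genes the groups did not overlap in 7.23%. The median coefficient of variation was 74.7% over 191 variable segments that averaged 5 CPM or more and 8.21% over 7804 genes outside these loci. Of the plasma cell identity genes 2 of 22 rose, Fkbp11 and Bhlha15, whereas with library totals 0 were called higher and 5 lower (adjusted p = 0.24 and 0.61 for Fkbp11 and Bhlha15). Bhlha15, also known as Mist1, a factor for secretory cell architecture, went from 165 ± 7.42 to 191 ± 14.2 CPM (adjusted p = 0.00443). It lost its call in 9 of 22 alternatives. Irf4, a factor that maintains plasma cells, was at 449, 579, 750.3, 646 and 558 CPM against 498, 449, 427, 481 and 381 CPM, overlapping and not called (adjusted p = 0.036). Prdm1, which encodes BLIMP1 (238 and 229.9 CPM), and Sdc1, which encodes CD138 (791 and 732 CPM), were not called.

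A part of the genes of NF-kappaB signalling fell at dusk. NF-kappaB factors wait in the cytosol and, on signals from CD40, TNF receptors or microbial products, enter the nucleus to switch on inflammatory genes together with their own inhibitors and subunits. All 30 genes of the list were tested, 13 fell and none rose, against 1.90% and 1.96% of all tested genes, and the median change was -0.46 (log2). Of the subunits, Nfkb2, which encodes the p100 precursor of the alternative pathway, was at 166, 159, 156, 180.4 and 171 CPM at ZT0 and at 99.9, 103, 109, 93.0 and 118 CPM at ZT12 (-0.67 ± 0.06, adjusted p = 4.85e-09). Relb, its partner, was at 56.4, 60.7, 51.8, 57.4 and 54.6 CPM against 28.6, 28.7, 29.3, 27.2 and 39.7 CPM (-0.87 ± 0.09, adjusted p = 2.3e-06). In both genes the groups did not overlap, and the highest dusk value was that of replicate 5, the library highest in heat shock genes. Nfkb1, which encodes p105, went from 48.0 to 40.5 CPM (-0.24 ± 0.06) and lost its call in 14 of 22 alternatives. Rela (66.7 and 62.4 CPM, adjusted p = 0.24) and Rel (26.2 and 19.1 CPM, adjusted p = 0.081) were not called.

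Of the receptors and adaptors, Cd40, the receptor for T cell help, was low throughout, at 1.79, 1.65, 2.00, 3.56 and 1.83 CPM at dawn and 0.730, 0.680, 0.951, 0.776 and 0.722 CPM at dusk (-1.48 ± 0.26, adjusted p = 0.000163). Traf1, Traf2 and the ubiquitin ligase gene Birc3, which act below such receptors, fell by 0.39 to 0.57 on the log2 scale. Traf2 lost its call in 9 of 22 alternatives. Among the targets, Icam1, an adhesion molecule, was at 39.3, 43.7, 45.4, 44.4 and 40.9 CPM against 19.2, 17.5, 14.8, 18.0 and 23.3 CPM (-1.20 ± 0.11, adjusted p = 1.86e-07). Cxcl10, a chemokine that interferon also induces, was at 52.3, 68.4, 50.2, 70.6 and 55.7 CPM against 23.2, 24.4, 25.6, 23.3 and 49.5 CPM (-1.03 ± 0.22, adjusted p = 0.00733). In both genes all dusk libraries were below all dawn libraries, and for Cxcl10 replicate 5 of ZT12 lay close to the dawn range. Cxcl10 lost its call in 14 of 22 alternatives, among them each fit without 1 ZT0 library and without ZT12 replicate 1, 2, 3 or 4. The inhibitors and kinases Nfkbib, Tnip1, Bcl3 and Ikbke fell by 0.27 to 0.79. Nfkbib lost its call in 11 of 22 alternatives. The inhibitor genes Nfkbia (164 and 116 CPM, adjusted p = 0.018), Nfkbie (78.3 and 50.4 CPM, adjusted p = 0.018) and Tnfaip3 (121 and 99.1 CPM, adjusted p = 0.19) did not pass the test.

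The other times of day placed these levels differently from gene to gene. Icam1 was at 14.9 ± 2.15 CPM at ZT6 and 23.6 ± 2.86 CPM at ZT18 (SD, n = 5). Relb was at 29.1 ± 4.20 and 51.5 ± 2.13 CPM and Cxcl10 at 26.8 ± 6.59 and 61.5 ± 10.7 CPM. With each library left out in turn 9 to 15 members fell, and with library totals 20. Without the 3 dusk libraries highest in heat shock genes 11 fell, and without the 3 highest in enterocyte markers 6. The sum of stromal and endothelial markers was lower at dusk. Of these markers Col3a1, a fibrillar collagen, fell from 1.33 to 3.38 CPM at ZT0 to 0.252 to 1.15 CPM at ZT12. Pecam1 made up most of the sum (24.3 to 29.5 and 22.4 to 25.8 CPM). The endothelial markers Cdh5 (2.06 to 2.98 and 1.48 to 2.30 CPM) and Vwf (at or below 0.213 CPM) were far lower. The part of stromal and endothelial RNA in the levels of Icam1 and Cxcl10 was not tested.

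The kappaB motif (both strands) lay in the promoter of 4 of 10 called members that RefSeq covers, Nfkb2, Cxcl10, Tnip1 and Bcl3, and of 9 of 15 members that were not called, against 5.14% of all genes. The windows of Nfkb2, a subunit, Cxcl10, a target, and Tnip1, an inhibitor, are shown because all of them fell and hold the motif, whose matches are in capitals, overlapping ones run together. Each ends at the base before the start: Nfkb2 on chr19:46304677-46304736, + strand, Cxcl10 on chr5:92348890-92349069, - strand, and Tnip1 on chr11:54962941-54963020, - strand.
Nfkb2: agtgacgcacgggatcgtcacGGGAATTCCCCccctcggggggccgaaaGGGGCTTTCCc
Cxcl10: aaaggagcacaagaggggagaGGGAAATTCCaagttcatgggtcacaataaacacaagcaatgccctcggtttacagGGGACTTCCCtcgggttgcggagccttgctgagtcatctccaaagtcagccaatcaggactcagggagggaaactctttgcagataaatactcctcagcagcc
Tnip1: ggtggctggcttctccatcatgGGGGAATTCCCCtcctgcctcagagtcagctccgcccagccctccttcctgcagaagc

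Neighbouring immune programmes differed in their calls. Of 18 tested genes of MHC class I presentation 4 fell (22.2%), against 1.90% of all tested genes, and 15 changes were negative. The 4 were the heavy chains H2-Q4, H2-Q6 and H2-K1 and the peptide loading factor Tapbp. H2-Q4 was at 85.5, 93.3, 86.9, 91.5 and 92.6 CPM at ZT0 and at 55.9, 53.5, 63.1, 67.2 and 63.6 CPM at ZT12 (-0.57 ± 0.06, adjusted p = 6.62e-08), with no overlap. H2-K1 fell from 799 ± 21.7 to 703 ± 24.0 CPM (SD, n = 5), whereas H2-D1 (635 and 609 CPM) was not called. Class I genes are near copies of each other, and counting could divide their reads. Tapbp overlapped between the groups and lost its call in 10 of 22 alternatives. Without the 3 dusk libraries highest in heat shock genes 2 class I genes fell, the same number as without the 3 highest in enterocyte markers. Of 33 interferon-stimulated genes Parp14, Rsad2, Stat2 and Irf1 fell (12.1%) and Isg20, an exonuclease, rose (3.03%). In this list 28 changes were negative, and the median was -0.20. Irf1 overlapped between the groups and lost its call in 12 of 22 alternatives. Without the 3 dusk libraries highest in heat shock genes 2 members fell and none rose. Without the 3 highest in enterocyte markers none was called. The receptor chain genes Ifnar1 (97.8 and 78.4 CPM) and Ifngr2 (6.70 and 4.69 CPM) fell as well. Ifnar1 overlapped between the groups, and both genes lost their calls in 9 of 22 alternatives. Of 30 immediate early genes, which respond to recent stimulation and to handling, edgeR, DESeq2 and limma-voom called none, with 4 at an unadjusted p under 0.05. Fos was at 696 and 575 CPM (adjusted p = 0.65) and Junb at 318 and 225 CPM (adjusted p = 0.09). None of 13 MHC class II genes was called by edgeR, DESeq2 or limma-voom (1 at an unadjusted p under 0.05).

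A part of the genes of sterol metabolism also fell. SREBP2, the sterol-sensing factor encoded by Srebf2, drives the enzymes that make cholesterol. Of 27 tested genes 11 fell (40.7%) and none rose, against 1.90% and 1.96% of all tested genes. In this list 26 changes were negative, and the median was -0.30 (log2). Sqle, squalene epoxidase, was at 63.9, 69.5, 63.2, 61.2 and 65.6 CPM at ZT0 and at 53.0, 54.0, 49.0, 44.2 and 52.9 CPM at ZT12 (-0.35 ± 0.07, adjusted p = 0.000472). Nsdhl, a sterol dehydrogenase, was at 16.7, 18.5, 20.6, 19.3 and 20.4 CPM against 12.5, 10.9, 13.3, 11.2 and 14.6 CPM (-0.61 ± 0.08, adjusted p = 3.67e-06). Srebf2 itself was at 248, 271, 244, 278 and 265 CPM against 220.1, 226, 211, 212 and 226 CPM (-0.25 ± 0.05, adjusted p = 0.000232). No dusk library reached the dawn range in any of these genes. Lss, Cyp51, Msmo1, Tm7sf2 and Fdft1, enzymes of squalene and sterol synthesis, fell by 0.28 to 0.71. Tm7sf2 lost its call in 12 of 22 alternatives. Hmgcs1, HMG-CoA synthase, was at 149 and 95.1 CPM (-0.65 ± 0.16, adjusted p = 0.02). Mylip, a ubiquitin ligase, rose from 5.94 to 9.02 CPM (0.60 ± 0.11, adjusted p = 0.00035).

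The mean of Nsdhl was 11.5 CPM at ZT6 and 20.3 CPM at ZT18. Leaving out each library in turn gave 8 to 13 falling members of the sterol list and library totals 21, while the fits without the 3 dusk libraries highest in heat shock genes or in enterocyte markers gave 3 and 4. Of 17 fatty acid synthesis genes the elongase Elovl6 (7.31 and 3.79 CPM, -0.95 ± 0.19) and the desaturase Fads1 (14.5 and 10.1 CPM, -0.52 ± 0.11) fell, while Fasn, fatty acid synthase (107 and 94.5 CPM, adjusted p = 0.023), did not pass the test.

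Energy metabolism held single calls. Cox7a2l, which helps respiratory complexes join into supercomplexes, was at 30.2, 30.9, 31.6, 35.5 and 30.3 CPM at ZT0 and at 51.9, 49.6, 49.5, 45.7 and 46.4 CPM at ZT12 (0.62 ± 0.06, adjusted p = 4.85e-09). The groups were apart, and the ZT6 mean was 43.9 ± 1.05 CPM. It was the only called gene of 80 tested nuclear respiratory chain genes (1.25%, against 1.96% of all tested genes). Of 28 glycolysis and pentose phosphate genes Gpi1, Pfkp and Pgk1 rose by 0.23 to 0.42 and Aldoc fell (9.77 and 5.21 CPM, -0.91 ± 0.19), whereas with library totals 0 were called higher and 5 lower. Pgk1 lost its call in 15 of 22 alternatives, and Aldoc, whose groups overlapped, in 8. Of 32 genes of the citrate cycle and fatty acid oxidation 1 rose and 1 fell (3.1% each), near the 1.96% and 1.90% of all tested genes. The gene that fell was the carnitine carrier gene Slc25a20 (-0.53 ± 0.13). Its groups overlapped, and it lost its call in 12 of 22 alternatives. None of 13 mitochondrially encoded messenger RNAs was called by edgeR, DESeq2 or limma-voom (4 at an unadjusted p under 0.05). The antioxidant genes Ftl1, a ferritin subunit, Txnrd1 and Sod1 rose by 0.21 to 0.34, of 26 tested, and with library totals 0 were called higher and 2 lower. Sod1 lost its call in 13 of 22 alternatives. Of 29 mTOR pathway genes Sesn1 alone was called (3.45%, against 1.96% of all tested genes). It rose by 0.33 ± 0.08 (edgeR adjusted p = 0.00999) with overlapping groups, and lost its call in 13 of 22 alternatives.

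Of the cell cycle genes from S to M phase, 37 of 41 had positive changes and the median was 0.38 (log2), but 3 rose and 1 fell. Ccne1, cyclin E1, was at 2.90, 2.54, 2.58, 2.38 and 2.34 CPM at ZT0 and at 8.53, 5.90, 6.07, 7.23 and 5.15 CPM at ZT12 (1.37 ± 0.17, adjusted p = 8.45e-07). Every dusk library was above every dawn library, and the other times had 2.97 ± 0.467 CPM at ZT6 and 2.33 ± 0.723 CPM at ZT18. Ccnb2, cyclin B2 (1.17 and 2.42 CPM), and Hmgb2, a chromatin protein (21.8 and 28.4 CPM), rose with overlapping groups. Both lost their calls in 10 of 22 alternatives. Tk1, thymidine kinase, fell from 57.3 ± 7.6 to 34.3 ± 4.22 CPM (SD, n = 5, adjusted p = 0.000257).

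Of 34 receptors for survival, cytokines and homing, 2 rose (5.88%) and 4 fell (11.8%), against 1.96% and 1.90% of all tested genes. Cxcr4, the receptor of CXCL12, was at 25.6, 24.1, 24.1, 28.2 and 26.3 CPM at ZT0 and at 37.3, 37.6, 38.4, 37.4 and 39.7 CPM at ZT12 (0.57 ± 0.11, adjusted p = 0.00226). Every dusk value was above every dawn value, and the ZT6 and ZT18 means were 35.0 and 35.6 CPM. Prlr, the prolactin receptor, rose from 7.51 ± 0.674 to 13.2 ± 2.27 CPM (SD, n = 5, adjusted p = 3.4e-06). Il2rg, the common gamma chain, fell from 47.0 to 33.6 CPM (-0.48 ± 0.06, adjusted p = 2.45e-06). Tnfrsf17, which encodes the APRIL receptor BCMA (90.4 and 104 CPM, adjusted p = 0.016), Tnfrsf13b, which encodes TACI (322 and 319.7 CPM), and the gut homing receptor gene Ccr9 (93.8 and 100.5 CPM) were not called. The survival gene Mcl1 fell from 595 to 535 CPM (-0.15 ± 0.04, adjusted p = 0.00493), the only call among 16 genes of the BCL2 family. Mcl1 lost its call in 10 of 22 alternatives. The kinase gene Pim1 fell from 630.1 ± 61.3 to 521 ± 11.2 CPM (SD, n = 5).

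Further large changes lay mostly outside the lists. Vav2, a guanine nucleotide exchange factor, was at 14.0, 13.5, 12.8, 14.3 and 13.7 CPM at ZT0 and at 5.66, 4.85, 6.58, 6.59 and 5.33 CPM at ZT12 (-1.23 ± 0.11, adjusted p = 4.56e-09). Snai1, a transcriptional repressor, was at 9.50, 17.2, 13.6, 17.5 and 9.39 CPM against 3.82, 4.63, 6.50, 6.86 and 6.52 CPM (-1.24 ± 0.24, adjusted p = 0.00356). Rapgef1, an exchange factor for Rap1, was at 207, 198, 192, 208 and 209.6 CPM against 134, 140.0, 142, 119 and 137 CPM (-0.59 ± 0.06, adjusted p = 4.85e-09). In each of these genes the dusk libraries were all below the dawn libraries. The serine protease inhibitors Serpina3f and Serpina3g, the actin-binding Nebl, the ARF6 exchange factor Psd, Cyb561a3, of the cytochrome b561 family, and the inhibitory B cell lectin Siglecg fell by 0.82 to 1.15. Serpina3f lost its call in 14 of 22 alternatives and Serpina3g in 10. Shisa5, a membrane protein gene, had the largest loss in absolute level, from 745 to 612 CPM, among called genes apart between the groups. Btla, an inhibitory receptor of lymphocytes, rose from 14.2 ± 1.499 to 21.8 ± 4.25 CPM (SD, n = 5), the only call among 20 genes of the residual B cell programme. Gpnmb, a glycoprotein best known in macrophages, went from 27.8 ± 2.15 to 46.0 ± 10.9 CPM and Myof, of the ferlin family, from 6.77 to 10.8 CPM. Gm9843 and Gm13050 rose by 0.61 to 0.62.

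Splicing regulators of the hnRNP and SR families held 5 genes that fell (14.7%) and none that rose among 34, against 1.90% and 1.96% of all tested genes. The 5 were Hnrnpa2b1, Hnrnph1, Hnrnph3, Hnrnpdl and Srsf1, which fell by 0.20 to 0.41. Their list median was -0.08, and library totals gave 15 falling genes. Without the 3 dusk libraries highest in heat shock genes 2 fell, and without the 3 highest in enterocyte markers 1. Leaving out each library in turn gave 1 to 5. Hnrnpdl lost its call in 12 of 22 alternatives, Srsf1 in 11, Hnrnph3 in 10 and Hnrnph1 in 4. Autophagy held Gabarap, which rose (3.23%), and Tfe3, which fell (3.23%), among 31 genes, near the 1.96% and 1.90% of all tested genes. Tfe3 lost its call in 10 of 22 alternatives. The zinc transporter gene Slc39a14 rose (5.56%), beside the fall of Mt2 (5.56%), among 18 genes of zinc handling. Both lost their calls in 8 of 22 alternatives. None of 12 Kruppel-like factors was called by edgeR, DESeq2 or limma-voom (3 at an unadjusted p under 0.05).

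The course of whole lists over the 4 times differed from list to list. Averaged over its members, and as log2 deviation from the mean of all 20 libraries, the ribosomal protein list went from -0.07 ± 0.08 at ZT0 over 0.07 ± 0.05 at ZT6 to 0.18 ± 0.04 at ZT12, and then stood at -0.18 ± 0.06 at ZT18 (SD, n = 5). The ATF4 list stood at -0.10 ± 0.10, 0.04 ± 0.07, 0.18 ± 0.05 and -0.11 ± 0.03 at the same times. In both lists ZT12 had the highest mean. NF-kappaB genes stood at 0.29 ± 0.06, -0.21 ± 0.11, -0.13 ± 0.09 and 0.05 ± 0.05, highest at ZT0. Cholesterol genes were at 0.16 ± 0.05, -0.18 ± 0.07, -0.17 ± 0.08 and 0.19 ± 0.04, so that ZT0 and ZT18 were high and ZT6 and ZT12 low.

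**Figure D5:**
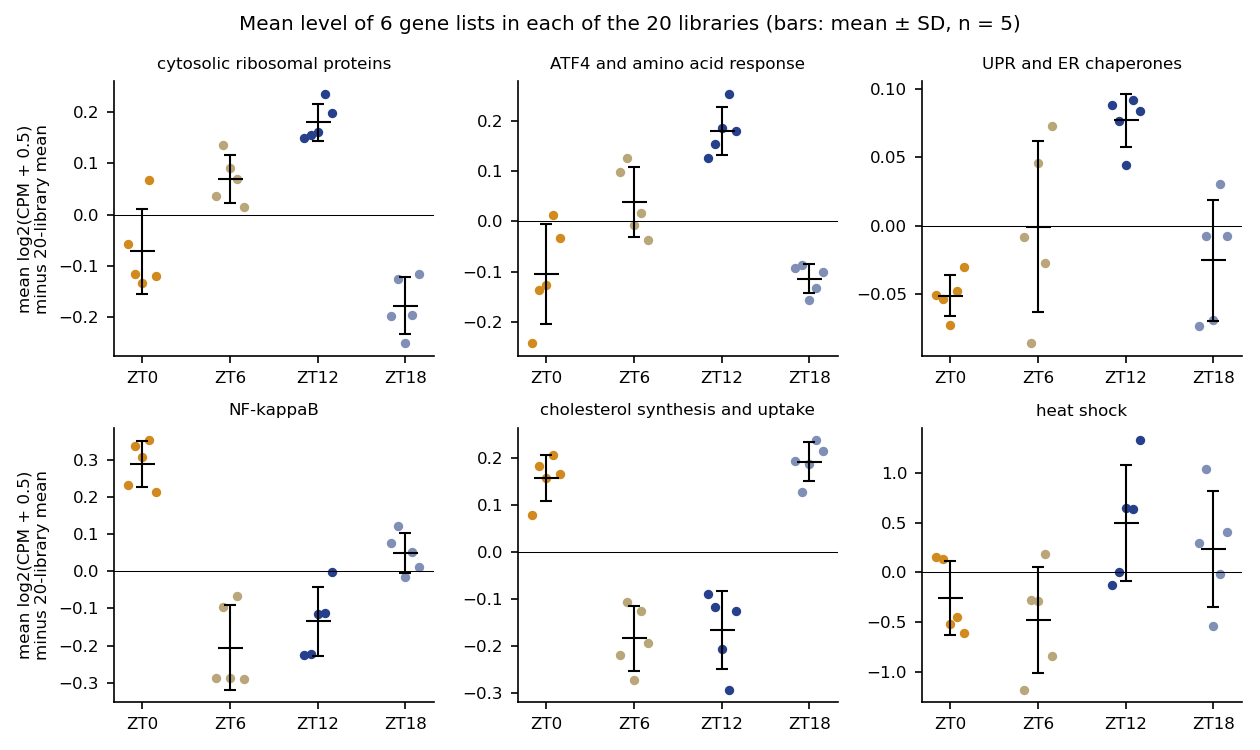
Mean level of 6 gene lists in each library at the 4 times (log2 of CPM plus 0.5, averaged over the tested members after subtracting each gene's mean over the 20 libraries). Points are libraries, 5 at each time, and bars are their mean and SD; ribosomal protein and ATF4 genes are highest at ZT12 (0.18 and 0.18), NF-kappaB genes at ZT0 (0.29), and heat shock genes differ most between libraries of 1 time.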

How the data were processed

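RNA of sorted intestinal IgA plasma cells was sequenced in 20 libraries, 5 at each of 4 times. The authors deposited raw counts per Ensembl gene and, for a smaller set of genes, FPKM values; for the aligner, counter and genome build, the entry is "not given in the sources used here". The FPKM values were used only for gene symbols and, over 13514 genes, equalled counts divided by library total and gene length. Symbols came from that table for 18803 of 47069 genes and from GENCODE M21 for 27727.

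Counts were tested with edgeR 4.0.16 (R 4.3.3) by the quasi-likelihood test with robust dispersion, in a model of 4 groups, after filterByExpr and TMM scaling. Genes were called at a two-sided Benjamini-Hochberg adjusted p under 0.01. The SE of a log2 change was taken from the change and its F value. The script was tested on simulated data. Alternatives were DESeq2 1.42.0 (genes with at least 10 counts), limma 3.58.1 voom with quality weights, other scalings, no filter, only the 10 libraries, a replicate block, a threshold of 0.05, and leaving out libraries.

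Named genes were the 12 highest and 12 lowest changes among called genes outside the immunoglobulin loci that averaged 5 CPM or more and did not overlap, the 6 largest gains and losses in CPM of the same kind, up to 6 called members of each list by p, the tested clock genes, and Igha, Igkc, Jchain, Sdc1, Xbp1, Prdm1 and Irf4. Some genes that this rule names are not reported here. Other genes were named after their values were seen. The comparison, its members and the lists were chosen with earlier results of these data known. Promoters came from RefSeq (GRCm38.p6).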

Additional observations from a re-analysis of the deposited data

Results flagged for a closer look

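Of 358 groups of 5 libraries, 27 held a library whose gap to its nearest neighbour exceeded 0.71 of the group's range, where chance gives about 5% of groups. At ZT12 replicate 5 stood above the others in Cxcl10 (49.5 CPM), Relb (39.7 CPM), Nfkbie (76.4 CPM), Tnip1 (53.6 CPM), Traf1 (33.3 CPM) and Shisa5 (653 CPM). It was also the library highest in heat shock genes, and the part of these in its values was not tested. ZT12 replicate 4 stood above the others in Hspa5 (4747 CPM), Manf (404 CPM), Phgdh (155.5 CPM), Shmt2 (120.6 CPM), Fos (859 CPM), Isg20 (86.0 CPM) and Myof (11.7 CPM).

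At ZT0 replicate 4 was high in Rps3a1 (374.5 CPM), Eef1b2 (119.5 CPM), Eif3h (66.8 CPM), Cox7a2l (35.5 CPM) and Cd40 (3.56 CPM), and replicate 1 was low in Rpn2 (242 CPM), Msmo1 (35.1 CPM) and Atf5 (15.1 CPM). Single further cases were Ddit4 in ZT0 replicate 2 (14.1 CPM, high), Per2 in ZT12 replicate 1 (8.25 CPM, low), Ciart in ZT12 replicate 2 (1.88 CPM, low) and Gpi1 in ZT12 replicate 3 (55.0 CPM, low). ZT0 replicate 3 had the highest total of its group, 51.0 M counts, and the highest sum of erythroid markers, 2.66 CPM.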

How the results depend on the processing

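The count of 539 called genes, 274 higher and 265 lower, became 959 (38 and 921) with library totals, and 1147 (596 and 551) at an adjusted p under 0.05. DESeq2 called 789 genes (416 and 373) and limma-voom 470 (253 and 217). Without the 3 ZT12 libraries highest in heat shock genes 345 were called (172 and 173), without the 3 highest in enterocyte markers 173 (103 and 70), and without ZT0 replicate 1 and ZT12 replicate 1, the libraries with the extreme scaling factors, 369 (203 and 166); these fits were chosen after seeing the data, and the cause was not tested. Leaving out single libraries gave 390 to 546 calls, 206 to 304 higher and 181 to 254 lower. The difference in immunoglobulin share was then 2.20 to 3.80 percentage points, with an exact p of 0.0397 without ZT0 replicate 4 (3.75 points), 0.0238 without ZT12 replicate 4, and 0.0794 to 0.143 without any other library. Deviations of same-numbered libraries had correlations of -0.05 to -0.02, so the numbers were not taken to pair the samples, and a fit with a replicate block called 531 genes. Of the 166 genes named with values, no called gene changed direction, while 13 that were not called did so in at least 1 alternative, 7 of them (Atf4, Ccr9, Clock, Cry1, Ddit3, Hspa5 and Jchain) with library totals. Calls lost among the 166 numbered 77 without the 3 ZT12 libraries highest in enterocyte markers, 60 without the 3 highest in heat shock genes, 49 with library totals, and 16 to 31 without a single library. Small changes of genes at a low level are limited by 5 libraries a group.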
